A study of Felis catus with 12 samples.

Results

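The small heat shock proteins of muscle and their partner BAG3 were followed as 8 transcripts (HSPB1, HSPB2, HSPB3, HSPB6, HSPB7, HSPB8, CRYAB and BAG3) among the 30785 genes listed for left ventricles of cats. The members were chosen by gene name, and all 8 passed the filter of at least 10 reads in at least 3 libraries that 8715 genes passed. The heart tissue came from the left ventricular free wall of client-owned cats and was taken after death, with 1 library per cat, 12 libraries in all and no repeat library of any cat. RNA selected for mRNA was read by Nanopore direct RNA sequencing, in which an RNA molecule is itself passed through a pore, so that a read stands for a molecule or a piece of it. Libraries carried 4 barcodes on each of 3 flow cells, taken here from the start of the library name, which has the form of a flow cell identifier. Flow cell A held cats 11, 23, 30 and 31, flow cell B held cats 10, 15, 35 and 36, and flow cell C held cats 37, 38, 29 and 22. No cat had been given a treatment or an allele that the labels name. Of the 10 cats that the study lists as sequenced, 6 had congestive HF and 3 had ATE (arterial thromboembolism, a clot lodged in an artery) by its cohort list. The remaining 1 had no known cardiac death. Cats 22 and 29, which the labels name, are not among the cats that the study lists as sequenced, so they entered levels and flow cell comparisons but no relation with a trait. The cohort list gives ATE for cat 22 and no known cardiac death for cat 29. Outcome was a clinical grouping in this cohort and not a formal diagnosis of cardiomyopathy.

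Small heat shock proteins are chaperones that work without ATP. They assemble into oligomers, hold unfolding proteins in a soluble state and hand them to the HSP70 machinery for refolding or disposal. Striated muscle holds more of these proteins than most tissues, since contraction strains the Z-disc and the filaments around it. BAG3 is a co-chaperone that binds small heat shock proteins, HSPB8 above all, together with HSP70, and it steers damaged Z-disc proteins into chaperone-assisted autophagy. Inherited changes in CRYAB and in BAG3 are known causes of cardiomyopathy in people.

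The libraries held between 789257 and 2263110 reads assigned to genes. A value is a read number scaled by the size factor of its library, and these factors ran from 0.699 to 2.07. Cardiomyocyte markers held 10.6% to 16.5% of the reads, and the tissue was heart muscle by these genes. Of 6 skeletal muscle markers in the file, MYBPC1 had no read, TNNT3, TNNI2 and TNNC2 did not pass the filter, and ACTA1 and CKM, which heart muscle also expresses, passed it. The list took 4.27% to 10.4% of reads. In bulk tissue, fewer cells of a type and less RNA per cell cannot be told apart.

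Together the 8 transcripts took 0.801% to 4.06% of all reads on genes, with a median of 1.496%. CRYAB alone made up 40.7% to 66.9% of the members' reads. Ordered by the median value over 12 libraries, CRYAB came first, at 10826, and was the 7th most read gene of all those listed. HSPB1 followed with a median of 3301, HSPB7 with 2619, HSPB6 with 1790, HSPB8 with 597, HSPB2 with 349, BAG3 with 191 and HSPB3 with 116. These are values per transcript that were not divided by transcript length, so they give the order of reads and not of levels per length. CRYAB was above HSPB1, HSPB6 above HSPB8, HSPB8 above HSPB2, and HSPB2 above BAG3 in 12 of 12 libraries. The neighbours HSPB1 and HSPB7 did not keep their order, with HSPB1 the higher in 8 of 12 libraries. HSPB7 exceeded HSPB6 in 10 of 12 libraries, and BAG3 exceeded HSPB3 in 10 of 12.

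The members differed in how much they varied over the 12 libraries. CRYAB and HSPB1 had coefficients of variation of 68.6% and 60.5%, and 87.7% and 81.5% of tested genes varied less. Cats 31 and 11 held the highest values of both. CRYAB was 34004 and 26021 in them, against at most 13897 elsewhere, and HSPB1 was 9729 and 6927, against at most 4064. How far the high coefficients rest on these cats was not tested. HSPB8 varied least, with 17.1%, and only 2.33% of tested genes had a lower value. BAG3 had 20.9%, HSPB2 21.7%, HSPB6 27.3%, HSPB7 27.9% and HSPB3 46.3%, beside a median of 40.0% (39.95%) over all tested genes. Counting of reads by itself would give 0.861% for CRYAB and 8.811% for HSPB3, the most and the least read members. By median value HSPB8, HSPB2 and BAG3 ranked 255th, 439th and 802nd of all listed genes. Most tested genes thus had fewer reads and a larger counting error, which raises their variation. The members were not compared with genes of like level, so the low places of these 3 transcripts reflect read depth in part.

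**Figure D1:**
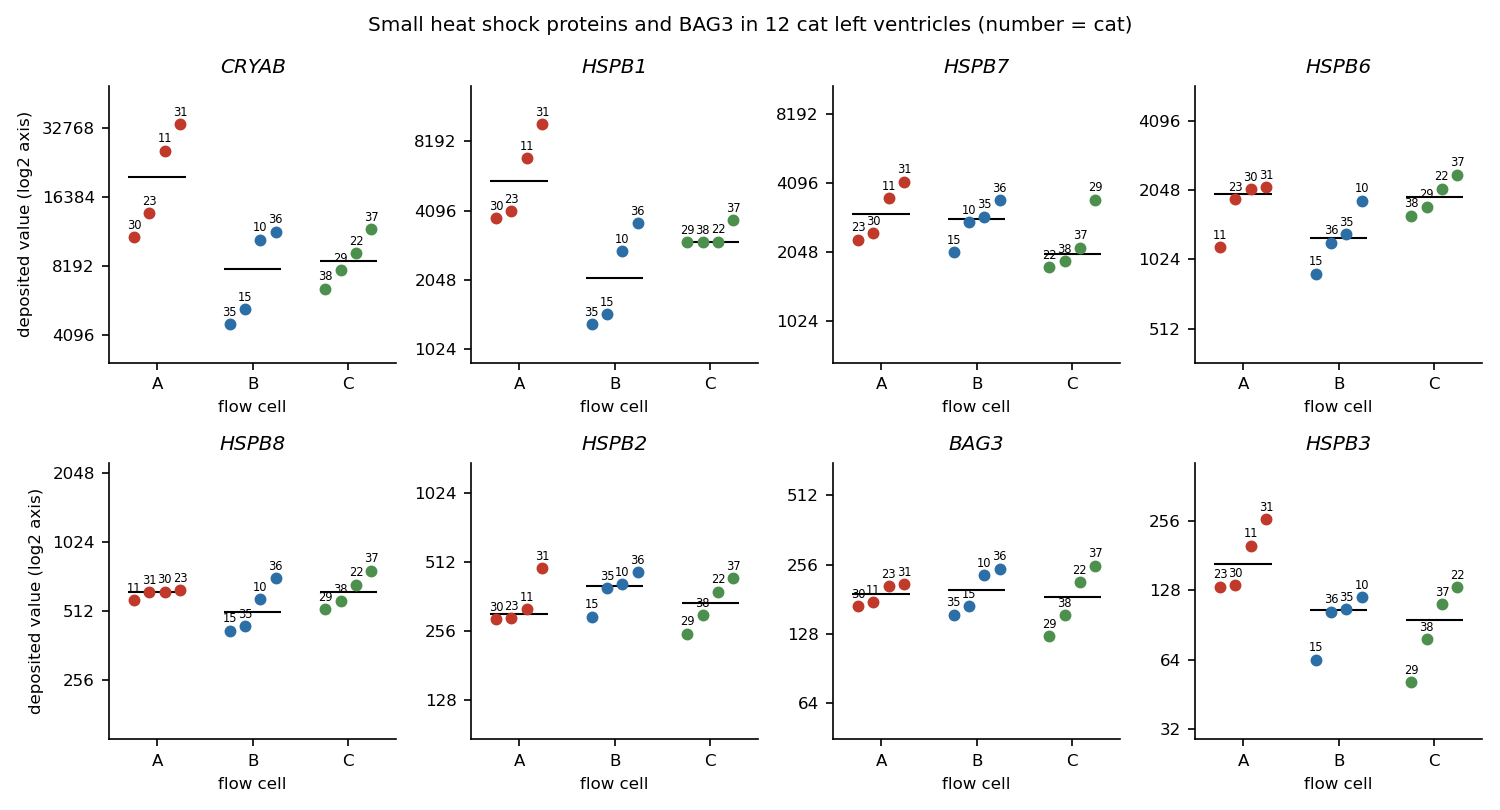
Deposited value (scaled reads, log2 axis spanning the same number of doublings in each panel) of the 8 transcripts by flow cell, with points for the 12 libraries, the cat number above each point and a line at the median of each flow cell. CRYAB and HSPB1 reach their highest values in cats 31 and 11 on flow cell A, whereas HSPB8 and BAG3 stay within 419 to 765 and 125 to 253.

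CRYAB encodes αB-crystallin, the main small heat shock protein of the heart, which binds desmin and titin. On flow cell A its value was 26021 in cat 11, 13897 in cat 23, 10970 in cat 30 and 34004 in cat 31. On flow cell B it was 10683 in cat 10, 5309 in cat 15, 4564 in cat 35 and 11565 in cat 36, and on flow cell C it was 11884 in cat 37, 6524 in cat 38, 7858 in cat 29 and 9301 in cat 22. Cats 31 and 11 lay above all others, and the lowest library of flow cell A lay below the highest of flow cells B and C.

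HSPB1 (HSP27) is a widely expressed member that protects actin filaments under stress. It read 6927 in cat 11, 4064 in cat 23, 3790 in cat 30 and 9729 in cat 31 on flow cell A. On flow cell B it read 2721 in cat 10, 1445 in cat 15, 1308 in cat 35 and 3610 in cat 36. On flow cell C 3 cats were nearly level, at 2991 in cat 38, 2985 in cat 29 and 2993 in cat 22, with cat 37 at 3721. All libraries of flow cell A were above all others, though only narrowly so for cat 30.

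HSPB7 is a member found mainly in heart and vessels that binds filamin C. Its value was 3516 in cat 11, 2321 in cat 23, 2478 in cat 30 and 4152 in cat 31 on flow cell A, and 2053 to 3450 on flow cell B. On flow cell C cat 29 stood at 3471 and the others at 1766 to 2144. HSPB6 (HSP20), which is phosphorylated upon β-adrenergic stimulation, ranged from 886 in cat 15 to 2392 in cat 37. Cat 11, which was second for CRYAB, had 1159 for HSPB6 and was the lowest of its flow cell.

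HSPB8 and BAG3 form a stable complex in the cytosol. HSPB8 was 569 in cat 11, 631 in cat 23, 620 in cat 30 and 618 in cat 31 on flow cell A. It ranged from 419 in cat 15 to 711 in cat 36 on flow cell B, and from 522 in cat 29 to 765 in cat 37 on flow cell C. BAG3 ranged from 168 to 211 on flow cell A, from 155 to 246 on flow cell B and from 125 in cat 29 to 253 in cat 37 on flow cell C. In both transcripts the range of flow cell A lay inside that of the other libraries.

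HSPB2, which binds the myotonic dystrophy protein kinase, and HSPB3 assemble with each other in muscle. HSPB2 was 318 in cat 11, 291 in cat 23, 288 in cat 30 and 482 in cat 31 on flow cell A, 295 to 462 on flow cell B and 249 to 435 on flow cell C. HSPB3 was 200 in cat 11, 133 in cat 23, 135 in cat 30 and 261 in cat 31, against 64.0 to 119 on flow cell B and 51.0 to 132 on flow cell C. The 4 values of HSPB3 on flow cell A were thus above all 8 others, by a margin of less than 1 for the lowest of them (133.0 against 132.3).

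Flow cell A was compared with flow cells B and C to learn which members differed with the sequencing set, because cats, flow cells and outcomes were not crossed. CRYAB and HSPB1 were higher on flow cell A, HSPB3 came close to the threshold, and the other 5 members did not pass it. CRYAB had a mean of 21223 ± 10727 (SD, n = 4) on flow cell A, 8030 ± 3604 on flow cell B and 8892 ± 2295 on flow cell C. On the log2(value + 1) scale the difference was 1.26 (SE 0.33, 95% interval 0.57 to 1.94), with an adjusted p of 0.0341 by limma. HSPB1 averaged 6128 ± 2789, 2271 ± 1096 and 3173 ± 366 on flow cells A, B and C (SD, n = 4 each), and differed by 1.15 (SE 0.31, interval 0.48 to 1.81; limma, adjusted p = 0.0443). HSPB3 differed by 0.92 (SE 0.27, interval 0.36 to 1.49; limma, adjusted p = 0.0567).

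Thus 2 of 8 members passed, both higher, where limma called 446 of 8715 tested genes, or 5.12%, of which 141 were higher (1.62%) and 305 lower (3.5%). By edgeR 190 were higher and 245 lower, and for reads without scaling 75 and 5. Without overlap between flow cell A and all other libraries were HSPB1 and HSPB3, where 1.72% of tested genes lay wholly higher on flow cell A and 2.51% wholly lower. An unadjusted p under 0.05 was reached by 3 members and by 21.4% of tested genes. The median difference of the 8 members was 0.23 and that of all tested genes was 0.03. For BAG3 the difference was 0.01 (interval -0.43 to 0.45), for HSPB8 0.09 (-0.30 to 0.48), for HSPB2 -0.09 (-0.52 to 0.35), for HSPB6 0.17 (-0.36 to 0.70) and for HSPB7 0.29 (-0.20 to 0.78). A difference of the size seen for CRYAB lay outside each of these intervals.

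**Figure D2:**
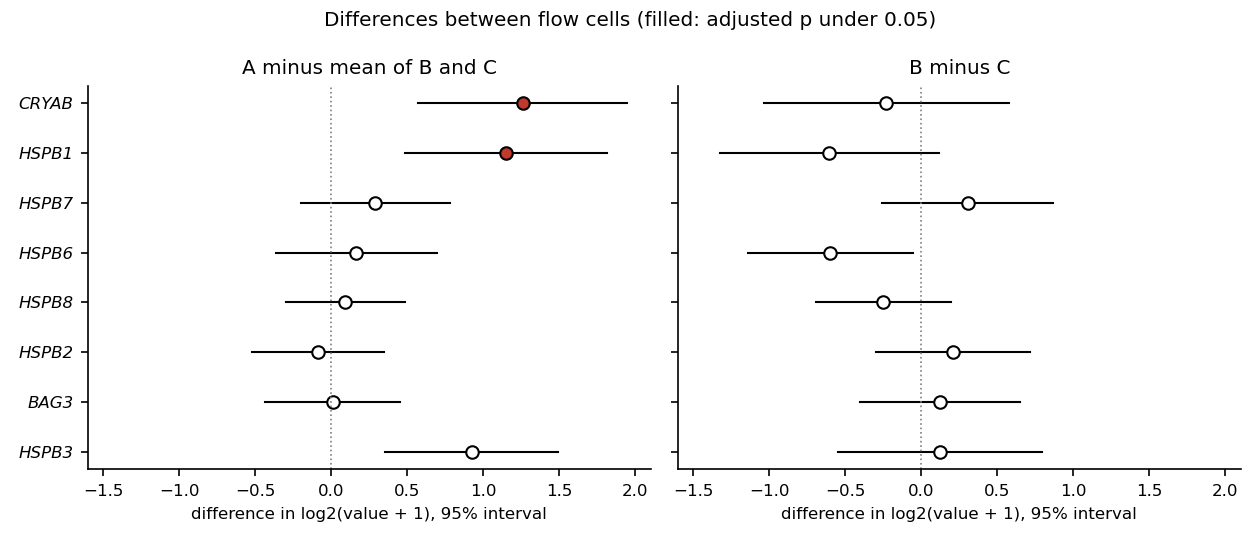
Difference in log2(value + 1) between flow cells for each transcript, as points with 95% intervals from limma over 12 libraries, with flow cell A minus the mean of B and C on the left and B minus C on the right. Filled points mark CRYAB (1.26) and HSPB1 (1.15), the members with an adjusted p under 0.05, and every interval on the right except that of HSPB6 spans 0.

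These calls rested on few libraries and on the genes tested. Without the 2 libraries not listed as sequenced, the difference was 1.29 for CRYAB (limma, adjusted p = 0.0605) and 1.22 for HSPB1 (limma, adjusted p = 0.0635). When all genes with a read were tested, the differences were as before and the adjusted p by limma was 0.110 for CRYAB and 0.0898 for HSPB1. Without cats 11 and 31 together, a setting added after their values were seen, limma called 0 genes (860 had an unadjusted p under 0.05), and the difference was 0.62 for CRYAB (adjusted p = 0.601), 0.62 for HSPB1 (adjusted p = 0.627) and 0.54 for HSPB3 (adjusted p = 0.643). When each library was left out in turn, the difference stayed between 0.98 and 1.53 for CRYAB and between 0.89 and 1.34 for HSPB1, while CRYAB kept its call in 7 of 12 fits and HSPB1 in 5 of 12. No member was called without cat 11 or without cat 31 (51 and 129 genes in all), and the same was true without cat 15, cat 38 or cat 29.

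Some markers of other cells and other muscle genes moved with the flow cell. Smooth muscle and pericyte markers held 0.0433% to 0.107% of reads on flow cell A, with their highest shares in cats 11 and 31, and 0.00917% to 0.0298% elsewhere. By limma, 2 of their 5 tested genes were higher (TAGLN by 2.63 and CNN1 by 5.90), and these held most of the summed reads in cats 11 and 31. All 5 had a difference above 0, as did 4566 of 8715 tested genes, but the others were not called. PDGFRB was 23.6 and 19.9 in cats 11 and 31, against 8.06 and 15.2 in cats 23 and 30, and reached 24.4 in cat 35. RGS5 was 25.1 and 43.1 in cats 11 and 31, against 25.5 and 58.9 in cats 23 and 30. MYH11, which did not pass the filter, was 3.86 and 2.39 in cats 11 and 31, against 10.7 and 16.8 in cats 23 and 30. ACTA2 was 104 to 126 on flow cell A, below the 147 and 152 of cats 37 and 29. Fibroblast markers ranged from 0.0950% to 0.310% on flow cell A, 0.0208% to 0.0575% on flow cell B and 0.0755% to 0.152% on flow cell C, with 2 of 7 higher on A. Of 11 tested cardiomyocyte markers, 6 were lower on flow cell A, among them MYBPC3 with a difference of -1.82 (adjusted p = 0.00233, limma) and TNNT2 with -1.05 (adjusted p = 0.00874, limma), and none was higher. Of 7 endothelial and 5 leukocyte markers 0 passed (limma, with 0 and 1 at an unadjusted p under 0.05), and 5 of each had a difference above 0. Leukocyte markers held 0.0215% and 0.0191% of reads in cats 11 and 31 and 0.0106% and 0.00708% in cats 23 and 30. Elsewhere they held 0.00369% to 0.00778%, apart from cat 35 with 0.0459%. The part of these cells in the values of CRYAB and HSPB1 was not tested, and flow cell and cat cannot be told apart.

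**Figure D3:**
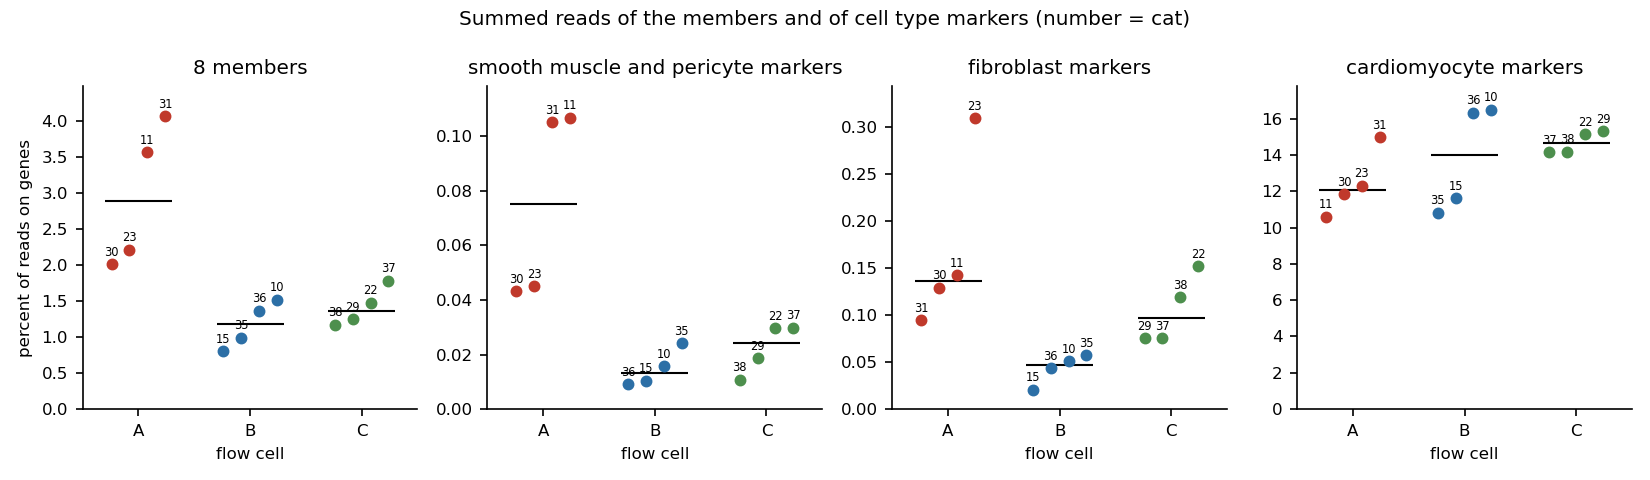
Percent of reads on genes taken by the 8 members and by markers of smooth muscle and pericytes, fibroblasts and cardiomyocytes, with points for the 12 libraries, cat numbers above them and a line at the median of each flow cell. The members' share was 2.01% to 4.06% on flow cell A and at most 1.78% elsewhere. Cats 11 and 31 are also highest for the summed smooth muscle markers, mostly through reads of TAGLN and CNN1.

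Genes that work with the family were taken from lists of known partners. Of the 15 genes that HSF1, the master factor of the heat shock response, is known to induce, 13 were tested, and HSP90AA1, a cytosolic HSP90, rose by 0.81 on flow cell A (SE 0.20; limma, adjusted p = 0.0308). Its values were 476 to 535 there and 161 to 381 elsewhere. The median difference of these 13 genes was 0.29. Of the HSP70, HSP110 and J-domain partners, 0 of 10 tested passed (limma, 2 at an unadjusted p under 0.05), and the genes HSPA1A and HSPA1B were not analysed here. Among the genes of chaperone-assisted autophagy, 0 of 12 passed (6 at an unadjusted p under 0.05), and 0 of 5 other BAG genes did (0 unadjusted). Of the heat shock factors HSF1 and HSF2 and the factor binding protein HSBP1, 0 of 3 passed (1 unadjusted), and HSF4 did not pass the filter. CRYAA and ODF1, other small heat shock proteins, had no read, and HSPB9 and HSPB11 did not pass, with differences of 0.73 and -0.05.

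Among proteins that small heat shock proteins hold or anchor, 3 of 9 tested passed. VIM, encoding the filament protein vimentin, was higher by 1.08 (SE 0.25; limma, adjusted p = 0.0205), and the Z-disc genes LDB3 and TCAP were lower, with differences of -1.04 (SE 0.27; limma, adjusted p = 0.0345) and -1.55 (SE 0.23; limma, adjusted p = 0.00233). TCAP, or telethonin, which caps titin at the Z-disc, read 406 to 853 on flow cell A and 1434 to 2772 in all other libraries.

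Between flow cells B and C, limma called 0 of 8715 genes (0%), with 686 at an unadjusted p under 0.05 (7.87%), while edgeR called 0 and DESeq2 23. No member was among them in any of these tests. HSPB6 had the smallest p, with 1315 ± 397 on flow cell B and 1949 ± 359 on flow cell C (SD, n = 4 each), a difference of -0.60 (SE 0.26, interval -1.14 to -0.05; limma, adjusted p = 0.584). HSPB1 differed by -0.60 (interval -1.33 to 0.12), and the other 6 members by -0.25 to 0.30. The median over the 8 members was -0.05. For the genes induced by HSF1 it was -0.76, with all 13 tested members lower on flow cell B but 0 past the threshold (limma, 5 at an unadjusted p under 0.05).

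The balance between members differed with the flow cell as well. CRYAB and HSPB2 are adjacent genes in the RefSeq table at hand, as they are in other mammals, where they are transcribed away from each other. The ratio of CRYAB to HSPB2 reads was 81.7 in cat 11, 47.7 in cat 23, 38.1 in cat 30 and 70.6 in cat 31. It was 11.64 to 26.1 on flow cell B and 21.8 to 31.5 on flow cell C, so flow cell A did not overlap them. HSPB2 to HSPB3, the muscle pair, had ratios of 1.59 to 2.19 on flow cell A, 3.42 to 4.62 on flow cell B and 2.87 to 4.89 on flow cell C. By contrast HSPB8 to BAG3 had ratios of 2.94 to 3.69, 2.48 to 2.89 and 3.02 to 4.17 on flow cells A, B and C, and CRYAB to HSPB1 stayed within 2.18 to 3.93. These ratios are given as a description, without a test.

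Pairs of members known to bind each other or to share a gene neighbourhood were then followed over the 12 libraries, as log2(value + 1), with permutation p-values adjusted over the 5 pairs. All points share their library, its depth and its size factor. CRYAB and HSPB1 ran together, with a Spearman rho of 0.930 (p = 4e-05, adjusted p = 0.0002) and a Pearson r of 0.959 (p = 1e-05, the smallest that 100000 resamples allow). When cats 11 and 31 were dropped, being farthest from the median of CRYAB, r was 0.902, and with values centred on each flow cell it was 0.957 (permuted within flow cells, exact p = 0.000217). HSPB1 was second in likeness to CRYAB among all tested genes, level with TUBB6, and 0.0344% of tested genes were at least as like CRYAB.

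BAG3 and HSPB8 had a rho of 0.776 (permutation p = 0.00363, adjusted p = 0.00907) and an r of 0.711 (permutation p = 0.0085). This r was 0.682 once cats 29 and 37, at the ends of the BAG3 range, were dropped, and 0.885 centred on flow cells (exact p = 0.00333). Only 0.115% of tested genes were at least as like BAG3 as HSPB8 was. The 2 cats at the ends of the BAG3 range, cats 29 and 37, were 3rd lowest and highest of the 12 for HSPB8.

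The adjacent genes CRYAB and HSPB2 did not pass over all libraries, with a rho of 0.343 (permutation p = 0.274, adjusted p = 0.342) and an r of 0.335 (permutation p = 0.287). Within flow cells their r was 0.735 (exact p = 0.00521), and 22.8% of tested genes were at least as like CRYAB as HSPB2 was. HSPB2 and HSPB3 had a rho of 0.259 (permutation p = 0.415, adjusted p = 0.415) and an r of 0.521 (permutation p = 0.0840), which fell to 0.0409 without cats 29 and 31 and so rested on these cats. Centred on flow cells their r was 0.897 (exact p = 0.00195). In these pairs the points of flow cell A lay to the side of the others, as the ratios above describe. CRYAB and HSPB6 had a rho of 0.413 (permutation p = 0.182, adjusted p = 0.303) and an r of 0.322 (permutation p = 0.302), with 0.219 within flow cells (exact p = 0.555) and 0.632 without cats 11 and 31.

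**Figure D4:**
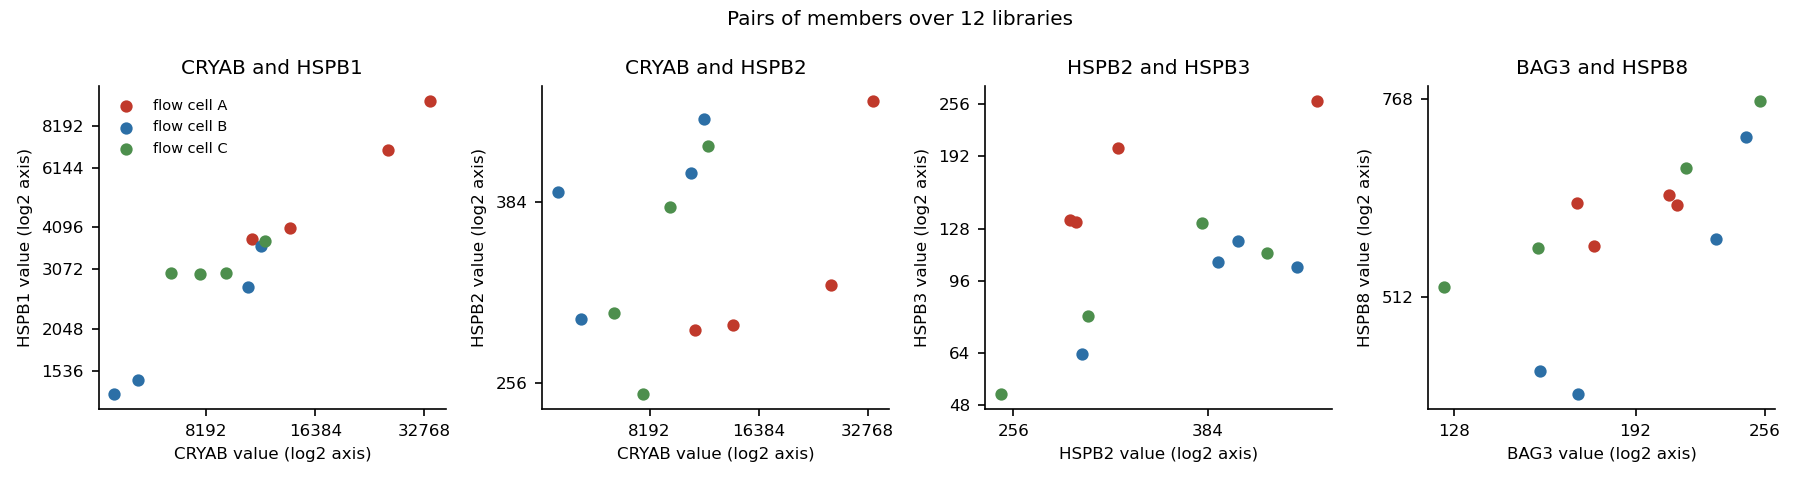
Deposited values of 4 pairs of members (log2 axes), with points for the 12 libraries coloured by flow cell. CRYAB and HSPB1 lie along a line over all flow cells (rho 0.930), HSPB8 follows BAG3 (rho 0.776), and in the panels of CRYAB with HSPB2 and of HSPB2 with HSPB3 the points of flow cell A lie to the side of the others.

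Over the same 12 libraries, the tested genes outside the family most like CRYAB were EIF3J, a subunit of a translation initiation factor (rho 0.972), TUBB6, a β-tubulin (rho 0.930), and NLK, CD59 and FLNC, a kinase, a complement inhibitor and filamin C (each rho 0.923). FLNC ranged from 129 to 1792. Most like HSPB1 were the receptor kinase AXL (rho 0.958) and, level with each other, the GTPase RRAS2 and the membrane protease ADAM10 (rho 0.944). BAG3 had lower coefficients, with SNX25 (rho 0.846), NPB (rho 0.832) and DUSP16 (rho 0.825), of which SNX25 had 7 to 47 reads and DUSP16 3 to 19. Given without a test, these values rank likeness over libraries of which cats 11 and 31 are the extremes for CRYAB and HSPB1.

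The study related transcripts to age and to tissue measures of the same cats, myocardial fibrosis among them. Relations of the members with age, fibrosis and adipocyte percentage were computed here with each trait permuted over cats. Adipocyte percentage was measured in the study but is not among the traits of its pathway figure. For age, with 9 cats, 7 of the 8 rho were negative, while 4137 of 8715 tested genes had a rho above 0. With the 2 libraries not listed as sequenced, 4 of the 8 were negative. CRYAB and HSPB1 ran together, so the 8 signs are not separate. HSPB2 was the member with an unadjusted p under 0.05, beside 4.76% of tested genes. HSPB2 had a rho of -0.817 (exact permutation p = 0.0108), which did not pass adjustment over 8715 genes (adjusted p = 0.816). Its Pearson r was -0.613 (exact p = 0.0820). Without the 2 cats farthest from the median age, r was -0.395 (cats 15 and 30) or -0.407 (cats 30 and 36, cats 15 and 36 being equally far), and within flow cells it was -0.607 (exact p = 0.135). No gene passed the adjusted threshold for age by Spearman's rho, by Pearson's r or by a limma slope, with 415, 424 and 401 at an unadjusted p under 0.05.

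With flow cells centred, the coefficients with age of CRYAB, HSPB1, HSPB7 and HSPB3 were farther from 0, though none passed adjustment. The 288 orders of ages within flow cells gave no gene a permutation p below 0.00694. Adjustment of these permutation p-values over 8715 genes could thus be passed only if very many genes shared that p. Over all 9 cats rho was -0.433 for CRYAB, -0.267 for HSPB1, -0.583 for HSPB7 and -0.167 for HSPB3 (exact p from 0.108 to 0.678). With values and ages centred on each flow cell and ages permuted within flow cells, it was -0.850 for CRYAB (exact p = 0.0486), -0.933 for HSPB1 (exact p = 0.0208), -0.883 for HSPB7 (exact p = 0.0417) and -0.683 for HSPB3 (exact p = 0.118), so that 3 of 8 members had an unadjusted p under 0.05 beside 6.2% of tested genes. A limma slope with flow cell as a covariate was -0.09 per year for CRYAB (SE 0.03, adjusted p = 0.254) and -0.08 for HSPB1 (SE 0.02, adjusted p = 0.213) on the log2 scale, and HSPB7 and HSPB3 had -0.05 each (SE 0.02 each, adjusted p = 0.307 and 0.407).

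HSPB8, BAG3 and HSPB6 showed smaller coefficients, at -0.133, -0.367 and 0.05 within flow cells (exact p from 0.264 to 0.903), beside -0.0833, -0.383 and 0.133 over all cats. On flow cell A, cats 31 and 11, the highest for CRYAB and HSPB1, carried barcodes 4 and 1 and were the younger pair. On flow cell B, cats 10 and 36, with barcodes 1 and 4, were likewise younger than cat 15, with barcode 2, and cat 35 had no age. On flow cell C, cat 37, with barcode 1, was older than cat 38, with barcode 2. CRYAB and HSPB1 were higher with barcodes 1 and 4 on each flow cell, so within flow cells A and B age and barcode cannot be told apart. Without cats 11 and 31, in a setting added afterwards, rho within flow cells was -0.327 for CRYAB, -0.546 for HSPB1 and -0.327 for HSPB7 over 7 cats (exact p from 0.417 to 0.667). Column numbers in the labels and the header of the file disagreed for cats 10 and 15, and with their columns exchanged these coefficients were -0.700, -0.683 and -0.683, with 0 of 8 members at an unadjusted p under 0.05 (608 of all tested genes) by the same Spearman test within flow cells.

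**Figure D5:**
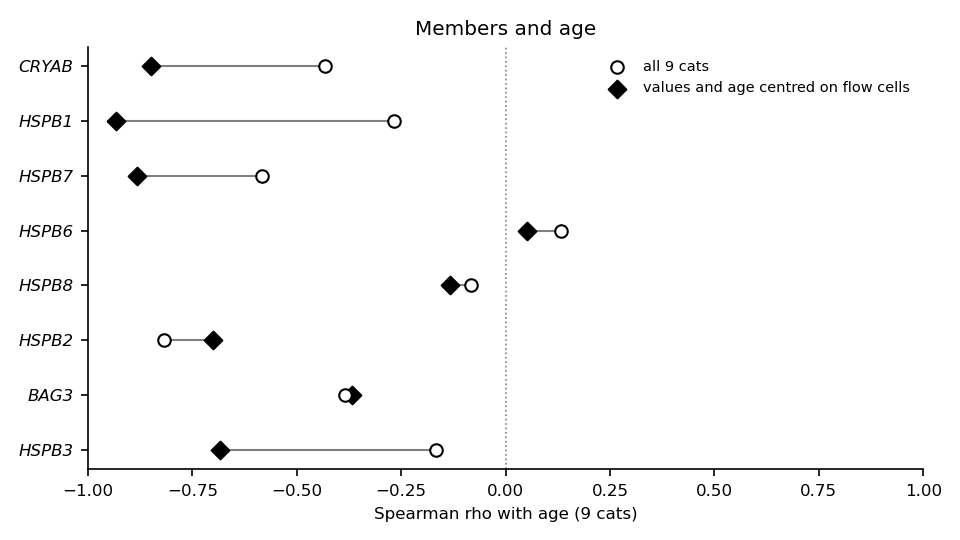
Spearman rho of each transcript with age over 9 cats, as open circles for all cats and filled diamonds for values and ages centred on each flow cell, joined by lines. HSPB1 moves from -0.267 to -0.933 and CRYAB from -0.433 to -0.850 when flow cells are centred, whereas HSPB8, BAG3 and HSPB6 stay between -0.383 and 0.133.

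Myocardial fibrosis, the percentage of scarred tissue in the section next to the RNA sample, showed no relation with a member. Over 8 cats rho ranged from -0.238 for HSPB6 to 0.524 for BAG3 (exact permutation p = 0.582 and 0.197), and 0 of 8 members had an unadjusted p under 0.05, as did 2.83% of tested genes. For the percentage of adipocytes, over 10 cats, rho ranged from -0.0667 for HSPB3 to 0.430 for BAG3 (permutation p = 0.865 and 0.218), again with 0 of 8 members beside 3.1%. No gene passed the adjusted threshold for either trait by Spearman's rho (247 and 270 at an unadjusted p under 0.05) or by a limma slope (230 and 333). A rho that misses the threshold over so few cats does not show that a member is unrelated to the trait.

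By outcome, values are given without a test, as the labels do not name the outcome, and only for the 10 cats listed as sequenced. CRYAB ranged from 4564 to 34004 with a median of 11427 in the 6 cats with congestive HF, and was 6524, 10683 and 13897 in the 3 with ATE and 11565 in the cat without known cardiac death. HSPB1 ranged from 1308 to 9729 in congestive HF, from 2721 to 4064 in ATE, and was 3610 in the remaining cat. HSPB8 and BAG3 were 711 and 246 in that cat, inside the ranges of 419 to 765 and 155 to 253 of congestive HF. The highest and the lowest value of CRYAB and of HSPB1, those of cats 31 and 35, were both from cats with congestive HF.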

How the data were processed

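Reads had been base-called with Guppy, kept above a Phred score of 7, mapped to felCat9 with Minimap2 and counted per gene with FeatureCounts by the authors. The versions of Minimap2 and FeatureCounts are not given in the sources used here. The deposited signal values were whole reads divided by 1 size factor per library, since 100% of values were whole multiples (tolerance 1e-06) of the value of 1 read. Such values are not undivided counts, so limma with an intensity trend on log2(value + 1) was the main test, and edgeR and DESeq2 on the recovered reads were alternatives. A gene was tested when 3 or more of the 10 libraries listed as sequenced had 10 or more of its reads, and p-values were adjusted by Benjamini-Hochberg over all of them. Reads of HSPB8, which overlaps another gene in the RefSeq table (a build other than felCat9, used for names only), are uncertain to that extent.

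Each library came from a different cat, and flow cells were compared with 4 libraries each. Same-numbered barcodes did not deviate together over all tested genes, but CRYAB and HSPB1 were higher with barcodes 1 and 4 on each flow cell. Spearman's rho used exact permutations under 10 cats and 100000 resamples otherwise, two-sided. Columns were matched to cats by header name, which for cats 10 and 15 disagreed with the column numbers of the labels. Ages, fibrosis and adipocyte percentages were joined by cat number. Members, pairs and gene lists were chosen with earlier results of these data known. Named were all members, called genes of the lists (up to 3 per direction) and the 3 genes most like CRYAB, HSPB1 and BAG3, ties included. HSPB9 and HSPB11 were named after their values were seen. Scripts were tested on simulated data. Depth, 789257 to 2263110 reads, limits the precision of the less read members. Tools were R 4.3.3, limma 3.58.1, edgeR 4.0.16, DESeq2 1.42.0, Python 3.11.15 with scipy 1.17.1, pandas 2.3.3, numpy 2.4.6 and matplotlib 3.10.9. Alternatives were other scalings, filters, pseudocounts, tests, a replicate block, left-out libraries and flow cell as a covariate.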

Additional observations from a re-analysis of the deposited data

Results flagged for a closer look

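In 24 sets of 4 libraries (8 members on 3 flow cells), 2 libraries stood apart from the other 3 of their flow cell, where chance gives about 1 in 20. HSPB1 in cat 37 was the highest of flow cell C, at 3721 against 2985 to 2993, with a gap of 0.989 of the whole range. HSPB2 in cat 31 was the highest of flow cell A, at 482 against 288 to 318, with a gap of 0.842 of the range.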

How the results depend on the processing

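Of 861 recomputed values, 759 were labelled unchanged. For differences and coefficients this meant the same direction and side of the threshold, for counts a similar size, and for places in the order an equal place. In all, 36 changed sign, 18 of them other than by leaving out a library. Between flow cell A and the others, 446 genes and 2 members were called, against 80 and 1 for reads without scaling (where the median of all genes moved from 0.03 to 0.41). DESeq2 called 862 and 3, and edgeR 435 and 3. When all 18070 genes with a read entered, 317 and 0 were called. There the limma p of CRYAB before adjustment also rose, from 0.00122 to 0.00434. Without the 2 libraries not listed as sequenced 344 and 0 were called. Without cats 11 and 31, an alternative chosen after seeing the data, 0 and 0 were called. Over fits that left out 1 library, 51 to 501 genes and 0 to 3 members were called. In this contrast HSPB2 turned to 0.31 without scaling and HSPB7 to -0.045 without cats 11 and 31. BAG3, near 0 throughout, turned to -0.022 with edgeR, -0.025 with DESeq2, -0.055 without the unlisted libraries and -0.010 without cats 11 and 31, and ran from -0.073 to 0.071 when 1 library was left out. Between flow cells B and C, 0 genes became 5 without scaling, 23 by DESeq2, 1 with a pseudocount of 2 and 1 without the unlisted libraries, where BAG3 turned to -0.012, and 0 to 2 when 1 library was left out, with differences of -0.051 to 0.286 for BAG3, -0.134 to 0.319 for HSPB3 and -0.445 to 0.0020 for CRYAB. The members called stayed at 0 in these fits. Beyond what the alternatives themselves change, the cause of these shifts was not tested.

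With barcode as a replicate block, which does not pair cats, 502 genes and 3 members (HSPB3 the additional one) were called between flow cell A and the others, and 0 between B and C. Over the 12 same-barcode pairs the correlation of deviations over all tested genes ran from -0.0865 to 0.108. Of 12 libraries, 5 were most like one of the same barcode. CRYAB and HSPB1 were nonetheless higher with barcodes 1 and 4 than with barcodes 2 and 3 on each flow cell, narrowly for HSPB1 on C. On flow cell B, CRYAB read 10683 and 11565 with barcodes 1 and 4, against 5309 and 4564. With the block, the SE of CRYAB was 0.21 in place of 0.33 (limma, adjusted p = 0.00746). Barcode and cat cannot be told apart within a flow cell.

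For age, 1 member had an unadjusted p under 0.05, against 0 by Pearson's r, by a limma slope, with the unlisted libraries entered as labelled, with the columns of cats 10 and 15 exchanged (also within flow cells) and within flow cells without cats 11 and 31, where 7 cats cannot reach the threshold. It was 3 without scaling (HSPB2, HSPB8 and BAG3, with 930 of all tested genes), 3 within flow cells (CRYAB, HSPB1 and HSPB7, with 540), 4 for a slope with flow cell (1010 of all tested genes), and 1 to 2 when 1 cat was left out, with rho from -0.429 to 0.0476 for HSPB3, -0.0238 to 0.476 for HSPB6 and -0.238 to 0.190 for HSPB8. With the unlisted libraries the rho with age turned to 0.145 for HSPB3, 0.1 for HSPB8 and 0.0182 for BAG3. With the exchanged columns it turned to 0.0333 for HSPB3 and 0.0667 for HSPB8 (0.167 within flow cells), and without scaling to -0.150 for HSPB6. For fibrosis HSPB6 turned to 0.0182 with the unlisted libraries and BAG3 to -0.214 without scaling, and 0 to 1 member had an unadjusted p under 0.05 when 1 cat was left out. For adipocytes HSPB3 turned to 0.161 with the unlisted libraries and to 0.0051 for a slope with flow cell, in which 1 member (HSPB1) had an unadjusted p under 0.05, and 0 to 1 did when 1 cat was left out, with rho from -0.350 to 0.150 for HSPB3. Among pairs, the rho of CRYAB with HSPB2 rose to 0.748 and that of HSPB2 with HSPB3 to 0.881 within flow cells (adjusted permutation p = 0.00458 each). Leaving out 1 library gave 0.909 to 0.964 for CRYAB with HSPB1, 0.709 to 0.855 for BAG3 with HSPB8, 0.145 to 0.518 for CRYAB with HSPB2, 0.0364 to 0.409 for HSPB2 with HSPB3 and 0.264 to 0.664 for CRYAB with HSPB6. The order of the members was the same by share of reads.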

Other observations

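Cats 22 and 29, whose numbers are not in the study's list of sequenced cats, had CRYAB values of 9301 and 7858 and HSPB1 values of 2993 and 2985, inside the ranges of the other libraries. Cat 29 had the lowest values of HSPB2 (249), HSPB3 (51.0) and BAG3 (125) of all 12 libraries and, at 3471, the highest HSPB7 value of flow cell C, which was the 3rd highest of all.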
